A study of Arabidopsis thaliana with 6 samples.

Results

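Transcripts of the plant-specific IQD and TRM families of microtubule-associated proteins were followed in unopened flower buds of Arabidopsis thaliana over 3 consecutive days of drought. Members were the genes whose symbol, ignoring case, is IQD or TRM followed by digits or begins with MAP65, and that have a probe set annotated to that gene alone. The rule found 30 of the 13356 genes with such a probe set, 15 IQD and 14 TRM genes and TRM82, each with 1 probe set. The gene table expands the TRM of TRM82 (AT1G03110) as tRNA modification, unlike that of the other 14, which is TON1 Recruiting Motif. TRM82 is therefore described apart. None of the 7 MAP65 symbols of the gene table, 18 of 33 IQD symbols and 16 of 30 TON1 Recruiting Motif symbols had a probe set named here, so these genes were not analysed here.

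IQD proteins carry calmodulin-binding IQ motifs, and most of those studied decorate microtubules, where they are thought to act as scaffolds for calcium signals and for other cortical proteins. TRM proteins share a short motif that binds TON1, a centrosomal-type protein of plant cells. Some of them bring TON1 and a protein phosphatase to cortical microtubules, and some are needed for the ring of microtubules that marks the plane of division. MAP65 proteins bundle antiparallel microtubules in the phragmoplast, the structure that builds the new cell wall. Members of all 3 families thus act in directed cell expansion and in the placing of division planes, processes that run in growing floral organs.

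All plants were Col-0 with anac019-1, an insertion allele of ANAC019, which encodes a transcription factor of the NAC family. They were grown well watered for 24 days, until just after bolting, and water was then withheld. Day 3, about 80 hours later, was the time at which soil moisture neared 35% of what the soil holds, and it was then held there by watering each day. The 3 groups were buds taken on day 3, day 4 and day 5, from plants aged 28, 29 and 30 days since germination, and each group had 2 arrays. Buds of the wild type and of watered plants were not analysed here. The length of the drought and the age of the plants cannot be told apart, and no value below bears on the mutation. Nothing says that replicates came from separate plants or pots, so p-values here reflect only how far these samples scatter, which may be technical.

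Values are RMA log2 expression levels, 1 unit being a 2-fold difference, and each change is the difference between 2 day means, given with limma's moderated standard error (SE). A gene was called when its limma p, adjusted by the Benjamini-Hochberg method over all 22746 probe sets tested, was under 0.05. The array medians lay between 6.97 and 7.03, and replicates correlated with r between 0.994 and 0.996 across probe sets. The 3′ probe sets of control transcripts exceeded the 5′ ones, a sign of RNA quality, by a mean of 2.23 in day 3 replicate 1 and 1.61 to 1.81 in the other 5 arrays. Of markers of floral organ identity, 1 of 9 (UFO) had a named probe set, at 3.92 to 4.17 and so near the lower end of the scale. Of tapetum markers 2 of 11 had one, AMS and SHT, at 8.18 to 10.77. Of late pollen markers 7 of 11 had one, and their values are given below. The tissue label could be checked only to that extent.

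Between day 3 and day 5, 11 of the 30 members fell, none rose and 19 did not pass. Those that fell were 6 IQD genes (iqd21, IQD23, IQD24, IQD26, IQD31 and iqd33) and 5 TRM genes (TRM22, TRM24, TRM28, TRM31 and TRM33). Over all probe sets tested, 15.9% were called lower and 12.9% higher in this comparison, and 28.8% in either direction. The median change was -0.24 for the 15 IQD genes, -0.27 for the 14 TRM genes and -0.04 for all genes with a named probe set. When each array was scaled to its added poly-A control transcripts, 27 of the 30 members were called lower and the median of the members was -0.70, but that of all probe sets was then -0.48, against -0.04. The falls given here are thus measured against the rest of the transcripts. The share of all probe sets called with that scaling was not counted, so the 27 cannot be set against the 15.9%. In 26 of the 30 members the change was below 0, against 7472 of the 13356 genes with a named probe set. In 19 members both day 5 arrays lay below both day 3 arrays and in 2 they lay above, against 35.3% and 26.3% of all probe sets.

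TRM24 (AT5G51850) changed the most among the members. It read 6.99 and 7.09 on day 3, 6.68 and 6.77 on day 4, and 5.89 and 5.25 on day 5. Each day lay wholly below the day before, and the day 5 arrays were the widest apart. Day 5 minus day 3 was -1.48 ± 0.20 (SE), a 2.78-fold fall (limma adjusted p = 0.00153).

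TRM31 (AT5G58630) read 5.87 and 5.38 on day 3, 4.95 and 5.14 on day 4, and 4.21 and 4.33 on day 5. Its days did not overlap either, and here the day 3 arrays were the widest apart. It fell 2.55-fold from day 3 to day 5, a change of -1.35 ± 0.17 (SE; limma adjusted p = 0.00132). Since its day 5 values lie in the lower part of the scale, where RMA compresses changes, this fold may understate the difference.

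TRM28 (AT5G03670) stood at 7.60 and 7.60 on day 3, 7.34 and 7.41 on day 4, and 6.69 and 6.31 on day 5, a change of -1.10 ± 0.14 between day 5 and day 3 (limma adjusted p = 0.00145). TRM22 (AT1G67040) stood at 8.03 and 8.15, then 7.97 and 7.96, then 7.40 and 7.15 on the same days, a change of -0.81 ± 0.13 (limma adjusted p = 0.00292). In both genes days 3 and 4 lay close together, without overlap, and day 5 lay clearly below. TRM33 (AT1G01695) was dim throughout, at 4.92 and 4.89 on day 3, 4.84 and 4.93 on day 4, and 4.46 and 4.50 on day 5. Its day 3 and day 4 arrays overlapped and its fall of 0.43 on the log2 scale (limma adjusted p = 0.0225) was the smallest that was called. That call was lost without any 1 of the day 3 or day 5 arrays.

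**Figure D1:**
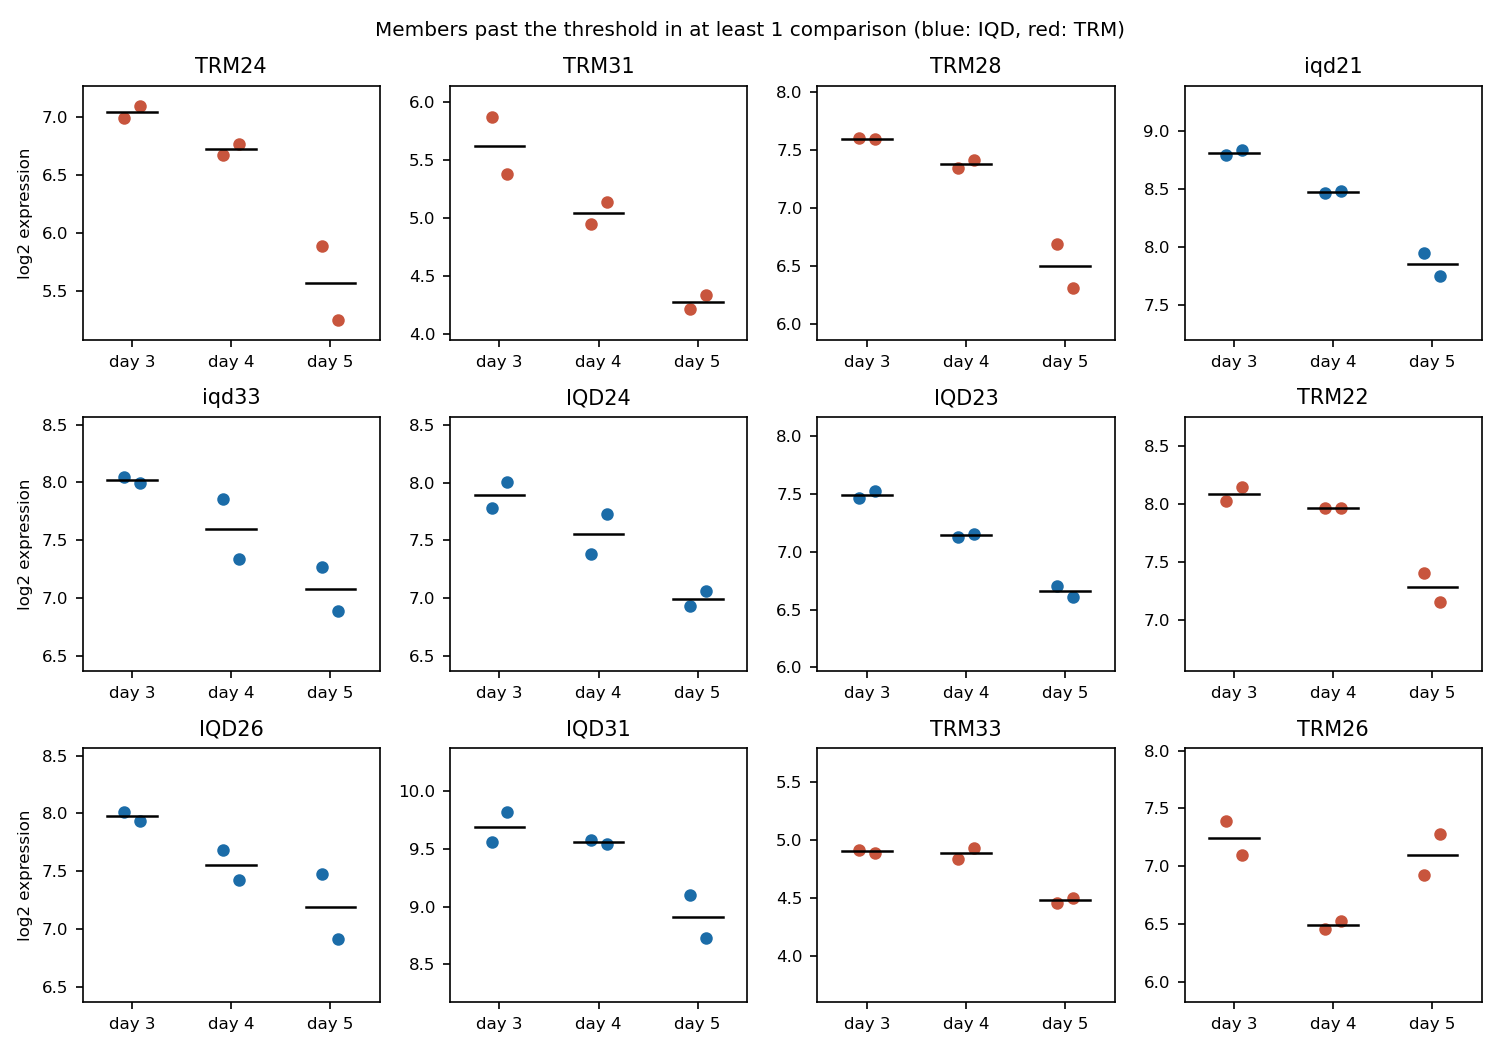
Log2 expression (vertical axes, each 2.2 units tall) of the 12 members called in at least 1 comparison, on day 3, day 4 and day 5 (horizontal axes); points are the 2 arrays of a day and bars their mean. In the 11 genes that fell both day 5 points lie below both day 3 points, while TRM26 is lowest on day 4.

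Among the IQD genes, iqd21 (AT3G49260) had the largest change from day 3 to day 5. It read 8.80 and 8.84 on day 3, 8.46 and 8.49 on day 4, and 7.95 and 7.75 on day 5, with no overlap between any 2 days. That change was -0.97 ± 0.12 (SE), a 1.95-fold fall (limma adjusted p = 0.00109).

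IQD23 (AT5G62070) and IQD24 (AT5G07240), neighbours in the family's numbering, gave similar values. IQD23 read 7.46 and 7.52 on day 3, 7.13 and 7.16 on day 4, and 6.71 and 6.61 on day 5 (-0.84 ± 0.11 between day 5 and day 3, limma adjusted p = 0.00144). IQD24 read 7.78 and 8.00, then 7.38 and 7.73, then 6.93 and 7.06 (-0.89 ± 0.15, limma adjusted p = 0.0042). In both genes each day lay below the one before without overlap. IQD22 (AT4G23060), next to them in number, was not called: its arrays read 6.76 and 6.41 on day 3, 6.46 and 6.10 on day 4, and 6.60 and 6.23 on day 5. The days overlapped, and the 95% interval of its day 5 minus day 3 difference ran from -0.61 to 0.28. The difference between the changes of IQD22 and of IQD23 or IQD24 was not tested.

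The other 3 IQD genes that fell had wider replicates. IQD31 (AT1G74690) read 9.56 and 9.82 on day 3, 9.57 and 9.54 on day 4, and 9.10 and 8.72 on day 5, a change of -0.78 ± 0.16 (limma adjusted p = 0.0086). Its days 3 and 4 overlapped. For iqd33 (AT5G35670) the arrays read 8.04 and 8.00, then 7.86 and 7.33, then 7.27 and 6.89, a change of -0.94 ± 0.20 between day 5 and day 3 (limma adjusted p = 0.00967). IQD26 (AT3G16490) read 8.01 and 7.93, then 7.68 and 7.43, then 7.47 and 6.92, a change of -0.78 ± 0.19 (limma adjusted p = 0.0182), with days 4 and 5 overlapping. Without day 5 replicate 2 the adjusted p was 0.0522 for IQD31, 0.0652 for iqd33 and 0.0827 for IQD26. The call of IQD26 was also lost without either day 3 array.

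The 7 other falls, those of TRM22, TRM24, TRM28, TRM31, iqd21, IQD23 and IQD24, passed whichever array was left out and in every other setting that tested them. In the whole list the count of members called for day 5 minus day 3 was 7 without day 5 replicate 2. It lay between 9 and 11 without any other array, and the 10 called without day 3 replicate 2 include a rise of TRM34 (0.45, adjusted p = 0.0484). The share of all probe sets called was not counted in the fits with an array left out, so the counts there have no background. On day 5, replicate 2 read below replicate 1 in 8 of the 11 genes that fell, with a median difference of -0.25, against 54.8% of all probe sets and a median of -0.02. Only TRM24, TRM28 and TRM31 fell at least 2-fold, 3 of 30 members, against 3.1% of all probe sets called and at least 2-fold lower.

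**Figure D2:**
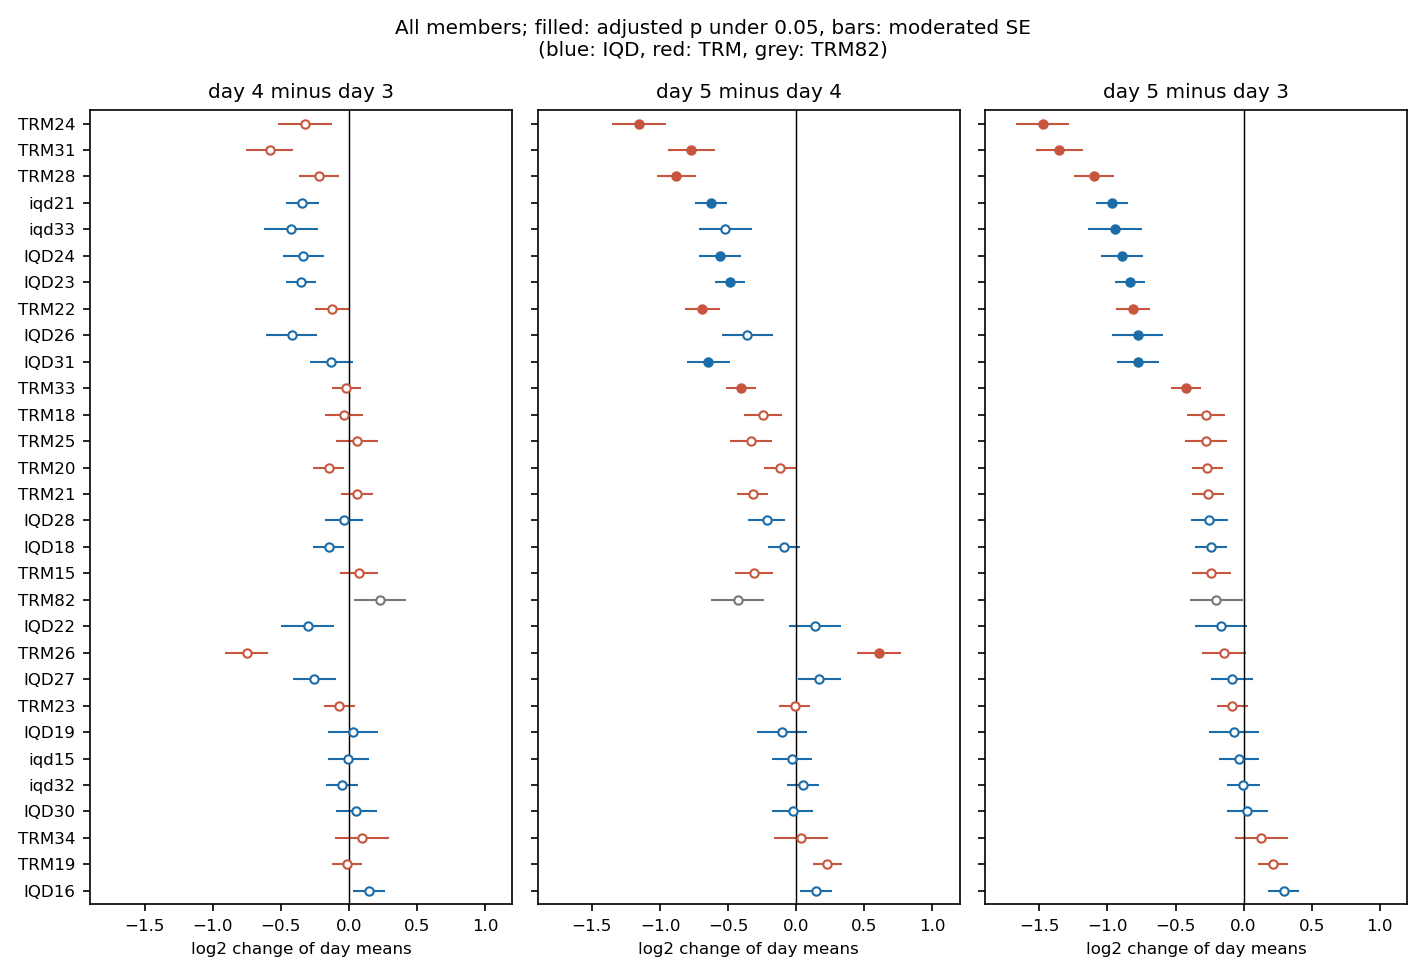
Change of log2 day means (horizontal axis) for all 30 members, ordered by day 5 minus day 3, in 3 comparisons; bars are the moderated SE and filled points have an adjusted p under 0.05. No member is filled for day 4 minus day 3, 10 are for day 5 minus day 4, and 11, all below 0, for day 5 minus day 3.

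Over the daily steps taken singly, members were called between day 4 and day 5 and not between day 3 and day 4. Between day 4 and day 5, 9 members fell, 1 rose and 20 did not pass, while 11.6% of all probe sets were called lower and 10.4% higher (22.1% in all). With each array scaled to the added control transcripts 19 members were called, all lower. The median of all probe sets was then -0.39, against -0.04, and the share of them called was not counted. Both day 5 arrays lay below both day 4 arrays in 17 members and above them in 3, against 37% and 26.9% of all probe sets. TRM24 fell by 1.16 on the log2 scale (limma adjusted p = 0.00649), TRM28 by 0.88 (limma adjusted p = 0.00559) and TRM31 by 0.77 (limma adjusted p = 0.0182). TRM22 fell by 0.69, IQD31 by 0.65, iqd21 by 0.62, IQD24 by 0.56, IQD23 by 0.49 and TRM33 by 0.41. The differences of iqd33 (-0.52, limma adjusted p = 0.101) and IQD26 (-0.36, limma adjusted p = 0.225) did not pass at this step.

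These calls rested on few arrays, and leaving 1 out left its day with 1 array for every probe set. The share of all probe sets called in those fits was not counted, so the counts below have no background. The number of members called between day 4 and day 5 was 0 when day 4 replicate 2 was left out and 3 when replicate 1 of that day was. It was 2 when day 5 replicate 2 was left out and 8 when replicate 1 of that day was. The calls of TRM24 and TRM28 were lost only without day 4 replicate 2, at adjusted p = 0.0585 and 0.0564. TRM31 and TRM33 lost theirs without any 1 of the 4 arrays, and TRM33 also with a trended and robust prior. IQD24 lost its call with cyclic loess, when either day 5 array was left out, and without day 4 replicate 2, and the remaining 4 falls lost theirs without either day 4 array or without day 5 replicate 2.

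**Figure D3:**
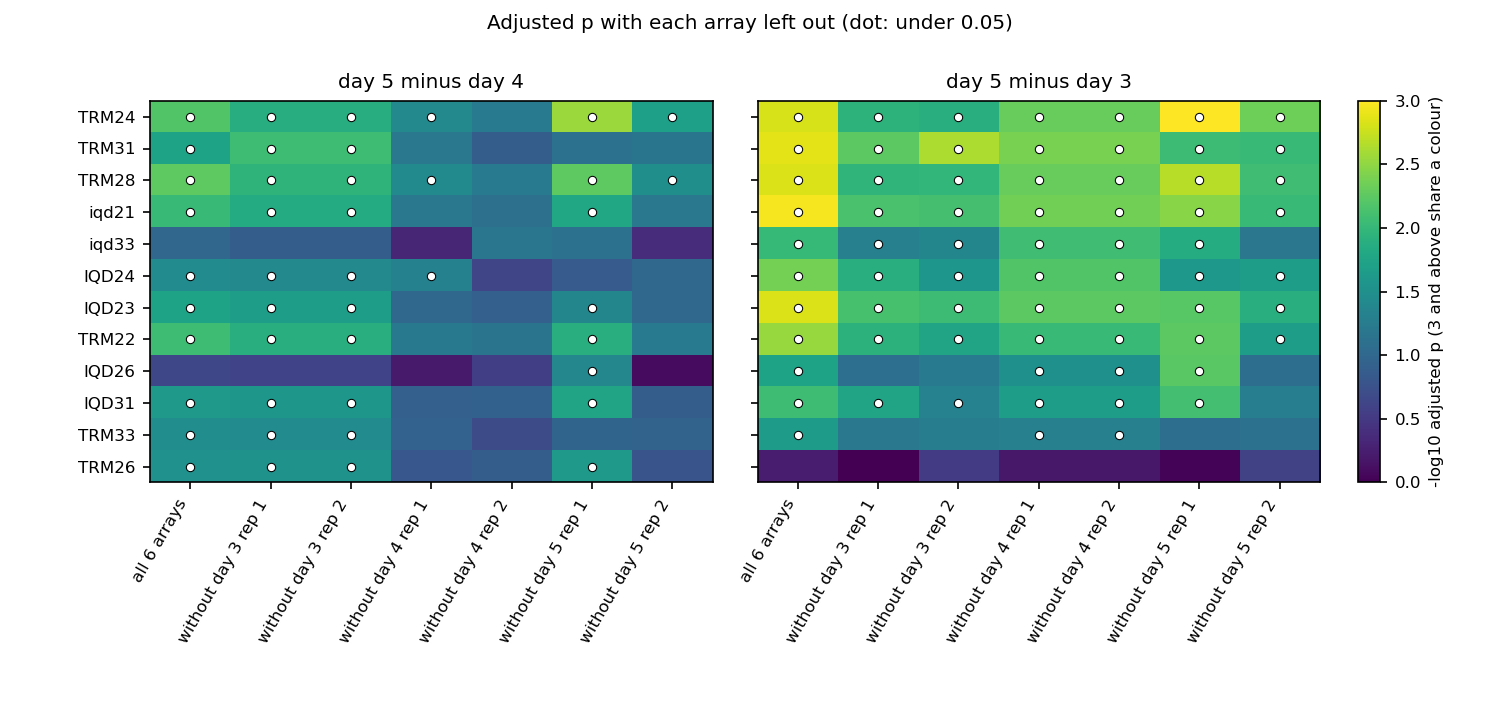
Adjusted p of limma, as its negative log10 (colour), for the 12 called members (rows) with all 6 arrays and with each array left out in turn (columns), for 2 comparisons; a dot marks a value under 0.05. In the day 5 minus day 4 panel the column without day 4 replicate 2 has no dot, while 7 genes have a dot in every column of the day 5 minus day 3 panel.

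Between day 3 and day 4 none of the 30 members was called by limma, which called 0.233% of all probe sets lower and 0.268% higher (0.501% in all), and 4 of the 30 members had an unadjusted p under 0.05, against 8.47% of all genes with a named probe set. These were TRM26 (0.00163), TRM31 (0.0106), IQD23 (0.0136) and iqd21 (0.0213). Of all 30 members, 12 had both day 4 arrays below both day 3 arrays, against 21.2% of all probe sets. The SE of the members at this step was 0.11 to 0.20, and in 17 of the 30 the 95% interval lay within 0.5 log2 units of 0. No member was called for the difference between the daily steps, that is, day 5 minus day 4 less day 4 minus day 3. For that difference limma called 1.93% of all probe sets. The unadjusted p was under 0.05 in 4 of the 30 members, TRM22, TRM24, TRM26 and TRM28, or 13.3%, against 15.5% of all genes with a named probe set, so this count was no higher than the background.

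TRM26 (AT2G17550) followed another course. It read 7.39 and 7.10 on day 3, 6.46 and 6.52 on day 4, and 6.92 and 7.28 on day 5. Both day 4 arrays lay below all 4 others, while days 3 and 5 overlapped. Day 4 minus day 3 was -0.75 ± 0.16 (limma adjusted p = 0.131) and did not pass, whereas the rise from day 4 to day 5, of 0.61 ± 0.16 (limma adjusted p = 0.0306), did. That rise was lost when arrays were centred on the spike-in controls, which gave 0.26, without either day 4 array and without day 5 replicate 2. The difference between its 2 steps was 1.36 ± 0.27 (limma adjusted p = 0.0567), past the threshold with a trended and robust prior (adjusted p = 0.0409) and without day 5 replicate 1 (adjusted p = 0.0448).

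The other 18 members, TRM82 included, were called in no comparison. TRM15, TRM18, TRM20, TRM21 and TRM25 differed by -0.28 to -0.24 between day 5 and day 3, with adjusted p of limma from 0.127 to 0.27, and in all 5 both day 5 arrays lay below both day 3 arrays. Likewise IQD18 and IQD28 differed by -0.24 and -0.25 without passing. TRM21 (AT5G43880), for example, read 7.69 and 7.83 on day 3, 7.76 and 7.89 on day 4, and 7.51 and 7.49 on day 5. Its days 3 and 4 overlapped, and day 5 lay below both.

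Changes close to 0 were measured for iqd32, IQD30, IQD19 and iqd15. iqd32 (AT1G19870) read 8.81 and 8.97 on day 3, 8.89 and 8.78 on day 4, and 8.93 and 8.84 on day 5, with a 95% interval of -0.28 to 0.27 for day 5 minus day 3. For IQD30 (AT1G18840) that interval was -0.32 to 0.38. Only IQD16, TRM19, TRM34 and IQD30 had a day 5 mean above that of day 3. IQD16 (AT4G10640) read 5.03 and 5.18 on day 3, 5.26 and 5.24 on day 4, and 5.34 and 5.46 on day 5, a difference of 0.29 ± 0.12 that did not pass (limma adjusted p = 0.101). TRM19 differed by 0.21 (limma adjusted p = 0.19).

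TRM23, IQD27 and iqd15 read between 3.09 and 4.51 on all 6 arrays, near the lower end of the scale, where a change could not be seen well. TRM82, whose namesake in yeast is a subunit of a tRNA methyltransferase, read 7.94 and 8.53 on day 3, 8.36 and 8.57 on day 4, and 8.09 and 7.98 on day 5. Days 3 and 5 overlapped, and the difference of -0.20 did not pass (limma adjusted p = 0.507). Both day 5 arrays lay below both day 4 arrays, a difference of -0.43 ± 0.19 that did not pass either (limma adjusted p = 0.16). TRM82 was called lower at that step with only the 4 arrays of those days (limma adjusted p = 0.0468) and with arrays centred on the spike-in controls. Of the 19 members not called for day 5 minus day 3, 6 had a 95% interval within 0.5 log2 units of 0, so for most of the others a change of moderate size could not be told from none with 2 arrays a day.

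Genes that work with these families were sparsely named. None of the 15 listed calmodulin and kinesin light chain-related genes or of the 18 listed OVATE family genes, which encode binding partners of IQD or TRM proteins, had a named probe set, so they were not analysed here. TON1B (AT3G55005), one of the TON1 proteins that TRM proteins recruit, was the only 1 with a named probe set of 25 listed genes of the TON1 complex, microtubule nucleation and severing. It read 8.35 and 8.63 on day 3, 8.26 and 8.26 on day 4, and 7.93 and 8.19 on day 5, and its day 5 minus day 3 difference of -0.43 did not pass (limma adjusted p = 0.0623).

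Of 17 listed tubulin genes 7 had a named probe set. Between day 3 and day 5, 2 of these fell, none rose and 5 did not pass, with a median change of -0.21. Over all probe sets 15.9% were called lower and 12.9% higher. TUB7 (AT2G29550), a beta-tubulin gene, fell by 0.96 ± 0.14 on the log2 scale (limma adjusted p = 0.00226). TUB5 fell by 0.52 (limma adjusted p = 0.0382), a call lost in 7 of the 16 settings. Of 36 other listed genes of microtubule-associated proteins 6 had a named probe set. Of these 1 fell and none rose, or 16.7% against that 15.9%, with a median of -0.20. That gene, SP1L3 of the SPIRAL1-like family, fell by 0.47 (limma adjusted p = 0.0158, and 0.078 without day 5 replicate 2), and SP1L5 fell between day 4 and day 5, by 0.49 (limma adjusted p = 0.0215), a call lost without any 1 of those 4 arrays.

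The phragmoplast kinesin gene KINESIN-12B (AT3G23670) was the only 1 of 28 listed kinesin genes with a named probe set. It read 6.79 and 7.08 on day 3, 6.61 and 6.63 on day 4, and 5.80 and 5.22 on day 5. Each day lay below the one before, and the change from day 3 to day 5 was -1.42 ± 0.20 (limma adjusted p = 0.0018). Of 29 listed genes of cell division and of the kinases that phosphorylate MAP65 proteins, 6 had a named probe set. Of these 4 fell, none rose and 2 did not pass, with a median change of -0.60, beside the same 15.9% lower over all probe sets. PRL, a subunit of the replicative helicase, fell by 1.41, the Aurora kinase genes AUR1 and AUR2 by 0.74 and 0.51, and HTR12, the centromeric histone gene, by 0.70. AUR3 (-0.25, limma adjusted p = 0.305) and KEU (0.13, limma adjusted p = 0.439) did not pass. In KEU both day 5 arrays lay above both day 3 arrays. The calls of HTR12 and AUR2 were lost without day 3 replicate 2 or day 5 replicate 2, and that of AUR2 also without day 5 replicate 1.

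**Figure D4:**
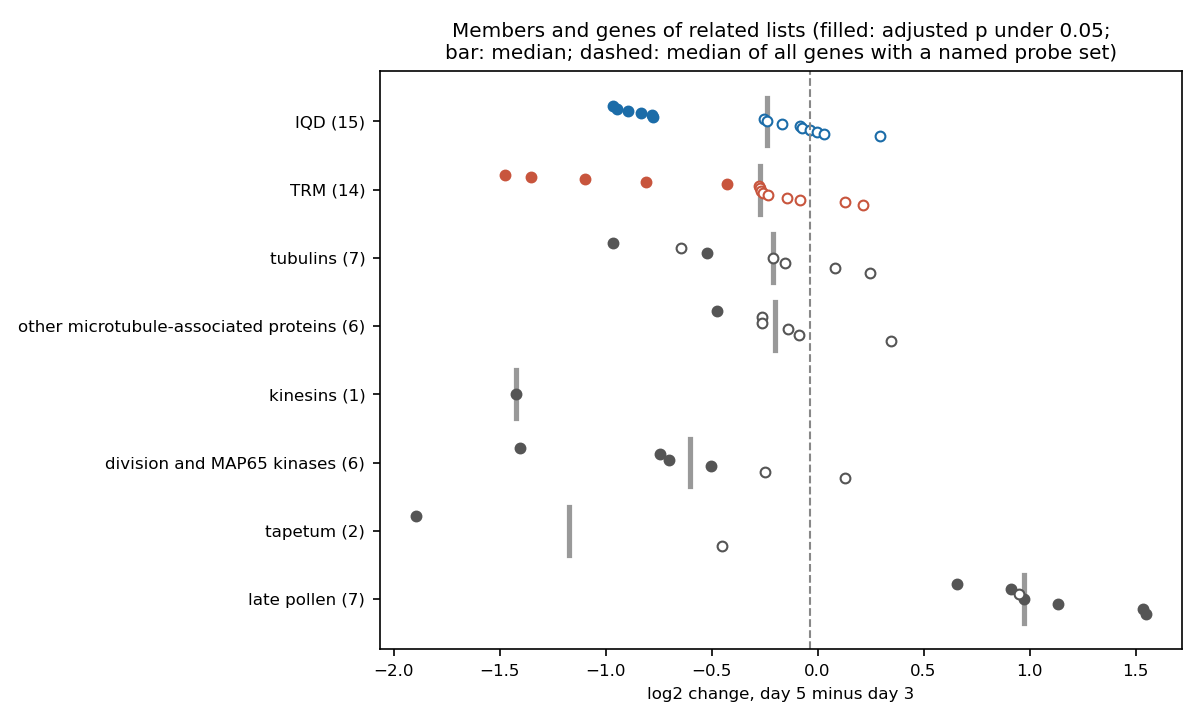
Log2 change of day 5 minus day 3 (horizontal axis) of the IQD and TRM genes and of the genes with a named probe set in 6 related lists (rows, number of genes in brackets); filled points have an adjusted p under 0.05, grey bars are medians, and the dashed line is the median of all genes with a named probe set. Called IQD, TRM, tubulin and division genes all lie below 0, and the called late pollen genes above.

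Some genes of dividing cells and some markers of pollen and tapetum moved over the same days. The mean log2 level of the 6 division genes, of 29 listed, was 8.42 to 8.53 on day 3, 8.29 to 8.34 on day 4 and 7.83 to 7.95 on day 5. That of 7 late pollen genes, of 11 listed, was 6.09 to 6.38, then 6.43 to 6.44, then 7.14 to 7.54, and 6 of the 7 rose between day 3 and day 5, beside 12.9% of all probe sets, among them AGL104 (1.53), ACT12 (1.13), AGL66 (0.98) and ANX1 (0.91). That of the 2 tapetum genes was 9.79 to 9.82, then 9.80 to 9.89, then 8.25 to 9.02. Of these SHT was called, with a change of -1.89 and day 5 arrays at 9.24 and 8.32. AMS did not pass (-0.45, limma adjusted p = 0.136), beside 15.9% of all probe sets called lower. The part of dividing cells, pollen and tapetum in the fall of IQD and TRM transcripts was not tested. In whole buds fewer cells of a type and less RNA per cell cannot be told apart.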

How the data were processed

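RNA from unopened buds was hybridised to 6 single-colour Affymetrix arrays, 2 for each of 3 days. The authors deposited log2 probe set values made with RMA and the R package affy, per the submitters' processing notes, which give no versions. No source used here says whether other arrays were normalised with these 6. Values lay between 2.30 and 14.46. RMA gives every array the same distribution, so all changes are relative to the other transcripts, and it compresses those of dim probe sets. Array number limits the precision.

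The 22746 probe sets tested hold none of the 64 controls. Genes were named through the platform annotation, which gives 1 gene for 13513 probe sets, several for 503 and none for 8730. Symbols were updated by gene identifier from a RefSeq table of TAIR10.1, which held 13436 of the 13513. Probe sets with several genes named none.

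A model of 3 day means was fitted to all 6 arrays with limma 3.58.1 in R 4.3.3 (lmFit, eBayes with 3 residual and 4.69 prior degrees of freedom), without a filter on low values, and was tested on simulated data. Tests were two-sided. All members are accounted for, and of each related list up to 4 called genes are named. Members and lists were chosen with earlier results of these data known. Alternatives were a filter on means under 5 (25 of the 30 members pass it), cyclic loess, a trended and robust prior, testing only probe sets of 1 gene, centring on the median or on the 27 poly-A spike-in probe sets, the replicate number as a block, only the arrays of the days compared, the mean of the probe sets of a gene, platform symbols, and leaving out each array. Promoter and protein motifs were not analysed here.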

Additional observations from a re-analysis of the deposited data

How the results depend on the processing

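The count of members called was 0 for day 4 minus day 3 in every setting run. Centring arrays on the poly-A spike-in controls, whose added amount is not recorded here, called 19 members for day 5 minus day 4 and 27 for day 5 minus day 3, all lower, against 10 (9 lower) and 11. It moves the median of all probe sets to -0.39 and -0.48, against -0.04 in both, and that of the members to -0.62 and -0.70, and it gave IQD30 a called -0.41, against 0.03. With 1 array left out the counts ran from 0 to 11 for day 5 minus day 4, from 7 to 11 for day 5 minus day 3 and from 0 to 1 for the difference between the steps, which was also 1 with a trended and robust prior (TRM26). The share of all probe sets called was not counted with that centring or with an array left out. An arm left with 1 array is assumed to vary like the others. Replicate numbers were not taken to pair the arrays, since no label says that they mark a shared pot, planting or day. Deviations of arrays with the same number correlated at 0.0987 (days 3 and 4), 0.145 (days 3 and 5) and 0.376 (days 4 and 5). These values do not settle whether the arrays are paired. With the replicate number as a block 11 members were called for day 5 minus day 4, iqd33 being added, and 11 for day 5 minus day 3. The other settings kept each count within 1.5 times. No member had over 1 probe set, so averaging the probe sets of a gene left the members' changes as they were. It altered their p-values only through the other genes. Both sets of symbols picked the same 30 members, so that alternative changes nothing by construction.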

Other observations

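Of the 11 members that fell between day 3 and day 5, 6 lie on chromosome 5 (TRM24, TRM28, TRM31, IQD23, IQD24 and iqd33), out of 8 members there, and 5 lie elsewhere, out of 22. Over all genes with a named probe set, 15% on chromosome 5 and 14.3% on the other chromosomes were called lower. This was noticed after the values were seen and was not tested.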
